A study of Mus musculus with 15 samples.

Results

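Transcripts of heart muscle cells taken 28 days after mice had been exposed to iron ions were compared with those taken on days 7 and 14. The 2 arrays of iron day 28 were set against the 4 arrays of iron days 7 and 14 together (2 arrays each), with both days weighted equally and no sham array in the difference, so that 6 of the 15 arrays entered it. Arrays were assigned by the day and exposure in their titles. The cells were left ventricular cardiomyocytes, the contractile cells of the main pumping chamber, and the mice were C57Bl/6NT males, 8 to 9 months old. All mice of the 3 groups compared had received 0.15 Gy of iron ions (1 GeV per nucleon, linear energy transfer near 151 keV per µm) over the whole body, and the labels name no altered gene in any of them. Iron-exposed cells of days 1 and 3 (3 arrays each) and sham-exposed cells of days 1 and 3 (3 arrays) gave the remaining values. Sham cells were available from days 1 and 3 only, so the time since exposure, the age of the mice and the day of isolation cannot be told apart at day 28. The isolation, collagenase digestion followed by selection for calcium tolerance, leaves a suspension in which, per the labels, a few inflammatory or endothelial cells may remain. In RNA from such a mixture, fewer cells of a type and less RNA per cell cannot be told apart. The question is which transcripts of this suspension differed between day 28 and days 7 and 14.

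Several kinds of transcript are described here, and each marks a different process. T cells carry the CD3 complex and the coreceptors CD4 and CD8, and immature T cells of the thymus, called thymocytes, also make the recombinase proteins RAG1 and RAG2, which assemble antigen receptor genes. Replication-dependent histones package newly made DNA, and their messages accumulate during DNA synthesis. Macrophages of the heart are resident phagocytes that clear debris and recycle iron and haem. The circadian clock of the cardiomyocyte is a feedback loop in which CLOCK and BMAL1 (Arntl) drive the genes of their own repressors from E-box elements, while D-box elements carry a second, later phase.

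The 2 day 28 arrays were much alike. Over the 9968 genes tested, the SD of the difference between them was 0.137 log2 units (Pearson's r = 0.9947 across genes, which are not independent replicates), whereas the 11 other pairs of arrays within a group had SDs of 0.206 to 0.351 (r = 0.9676 to 0.9888). Whether each array had its own mouse is not stated in the labels. The spread behind the p-values is thus that between arrays and possibly only technical, and 2 arrays a day give a coarse estimate of it. Cardiomyocyte markers were high on all 6 arrays, with a mean log2 signal of 12.23 on both day 28 arrays, 12.13 and 12.24 on day 7, and 12.20 and 12.23 on day 14 over 10 genes.

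On day 28, 347 genes were higher and 60 were lower than on days 7 and 14 (limma, Benjamini-Hochberg adjusted p under 0.05), which is 3.48% and 0.602% of the 9968 genes tested. The higher genes were led by T cell genes, histone genes and genes of DNA replication, and the lower ones by the macrophage gene Ms4a6d and the clock repressor Ciart. Differences among the called genes were from 0.29 to 3.83 log2 units for the higher set (median 0.53) and from 0.26 to 1.41 for the lower set (median -0.53), beside a median of 0.044 over all genes. Of all calls 85.3% were higher, and the share was 71.4% (182 higher and 73 lower) after quantile normalization and 69.2% (1273 higher and 566 lower) with array weights. A change of more than 2-fold was reached by 34 of the higher and 2 of the lower genes. For 340 of the 347 higher genes both day 28 arrays lay above all 4 arrays of days 7 and 14, which was so for 2060 genes (20.7%) of all those tested. For 58 of the 60 lower genes both lay below, as for 1278 genes (12.8%) of all. All 347 and all 60 had the same sign against day 7 and against day 14 taken singly. The calls rested on counting the day 28 arrays as 2 samples. When they were averaged and counted as 1, a fit added after seeing the data, limma called 0 genes, although 1184 stood at an unadjusted p under 0.05 (2587 with both arrays). Leaving out either day 28 array left 1 or 4 genes called, leaving out 1 array of day 7 or 14 left 49 to 1225, leaving out 1 array of days 1 and 3 or of sham left 179 to 555, and a fit of the 6 arrays of days 7, 14 and 28 alone left 35.

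**Figure D1:**
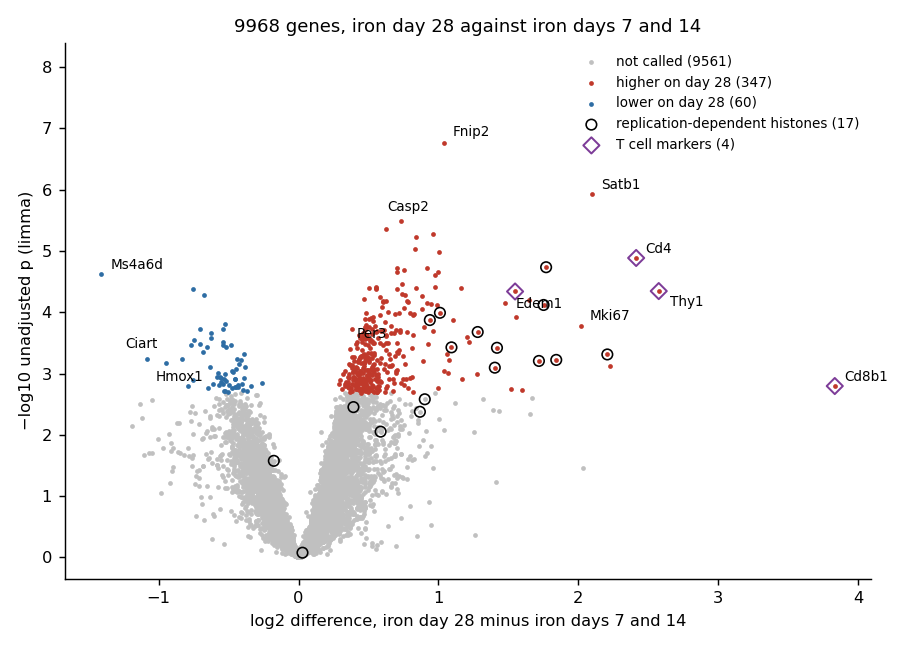
Each point is 1 of 9968 genes, with its log2 difference between iron day 28 and iron days 7 and 14 on the x axis and the −log10 of its unadjusted limma p on the y axis. Red and blue points mark the 347 genes called higher and the 60 called lower, circles mark 17 replication-dependent histones and diamonds 4 T cell markers, which lie at the right with Cd8b1 at 3.83.

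T cell genes showed the widest gap. The 4 T cell markers tested, of 14 on the array, were called higher on day 28, beside 3.48% of all genes tested. Their median difference was 2.49 (3 of the 4 were called after quantile normalization or median centring). Of these, Cd8b1 and Cd4 passed the filter on mean signal only through the day 28 arrays, so their being tested already required a high day 28 level, and the count is a description. Without the filter 10 of the 14 were called higher. Cd8b1, the beta chain of the coreceptor CD8, had 10.08 and 9.997 on day 28, against 6.06 and 5.67 on day 7 and 7.90 and 5.20 on day 14. Its difference was 3.83 (SE 0.97, adjusted p = 0.0455), with replicate 1 of day 14 between the day 28 arrays and the rest. Cd4, the other coreceptor, had 8.14 and 8.03 on day 28, against 5.75 and 5.40 on day 7 and 6.29 and 5.25 on day 14. Thy1, a surface glycoprotein abundant on mouse thymocytes, had 8.87 and 8.72 on day 28, against 6.56 and 6.02 on day 7 and 6.68 and 5.62 on day 14. Cd3e, a chain of the CD3 signalling complex, had 7.68 and 7.67 on day 28, against 6.39 and 5.95 on day 7 and 6.32 and 5.84 on day 14. In none of the 4 did the groups overlap, and 20.7% of all genes tested likewise had both day 28 arrays above the other 4. The differences were 2.41 (SE 0.36, adjusted p = 0.0144) for Cd4, 2.57 (SE 0.43, adjusted p = 0.0157) for Thy1 and 1.55 (SE 0.26, adjusted p = 0.0157) for Cd3e. Other genes known from thymocytes were among the 15 with the widest gap. Satb1, a chromatin organiser needed for T cell development, had 8.98 and 8.82 on day 28, against 6.68 and 6.48 on day 7 and 7.37 and 6.68 on day 14, a difference of 2.10 (SE 0.25, adjusted p = 0.00593). Rasgrp1, which links the T cell receptor to RAS, and Sla, an adaptor that dampens that receptor, stood 2.22 and 1.60 higher, but both likewise passed the filter only through day 28. In all, 17 of the 347 genes called higher, none of the 60 called lower and 91 of the 9968 tested passed it only in this way.

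A further 10 T cell markers lay below the filter on mean signal and were not tested. Their levels are given as a description. Rag1, the recombinase subunit, had 8.27 and 8.11 on day 28, against 4.18 and 3.43 on day 7 and 6.08 and 3.08 on day 14. Themis, a signalling protein of thymocytes, had 7.83 and 7.61 on day 28, against 4.26 and 3.28 on day 7 and 5.21 and 2.91 on day 14. Dntt, the enzyme that adds untemplated bases to receptor joints, had 8.03 and 7.87 on day 28, against 4.42 and 3.86 on day 7 and 5.35 and 3.997 on day 14. Of these, Rag1 and Dntt separate immature from mature T cells. Rag1, Themis and Dntt were each well above their levels on days 1 and 3 after iron, where Rag1 was at 2.20 to 2.93. Over all 14 T cell markers on the array, 12 were higher on both day 28 arrays than on all 4 arrays of days 7 and 14. Cd2 and Il7r overlapped. Of all genes tested, 20.7% were higher in this way. The mean level of the 14 markers was 7.37 and 7.22 on day 28, against 5.18 and 4.76 on day 7, 5.69 and 4.58 on day 14, and 4.12 to 6.24 in sham cells.

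The same genes were also raised in 1 sham array. In the sham array of day 3, Rag1 stood at 6.38 and Cd8b1 at 8.65, against 2.27 and 2.61 for Rag1 and 4.10 and 4.63 for Cd8b1 in the sham arrays of day 1. That array took no part in the difference between day 28 and days 7 and 14, but it entered the spread behind the SEs and p-values. Without it limma called 555 genes, and Cd8b1 had an SE of 0.52 (adjusted p = 0.00232). Of the 347 genes higher on day 28, 270 (77.8%) had a higher signal in the sham array of day 3 than in both sham arrays of day 1, which held for 30.6% of all genes tested. Of the 60 lower genes, 39 (65.0%) had a lower signal there, against 45.1% of all. With the mean level of the 10 untested T cell markers as a covariate, a fit likewise added after seeing the data, limma called 6 genes (1216 at an unadjusted p under 0.05). They were Satb1, higher by 0.94 (SE 0.15), and Cfap126, Gclc, Lrrc51, Meig1 and Rasgef1b, lower by 0.99 to 2.64 log2 units. The covariate is itself highest on day 28, so this fit removes part of any difference that moves with the day.

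**Figure D2:**
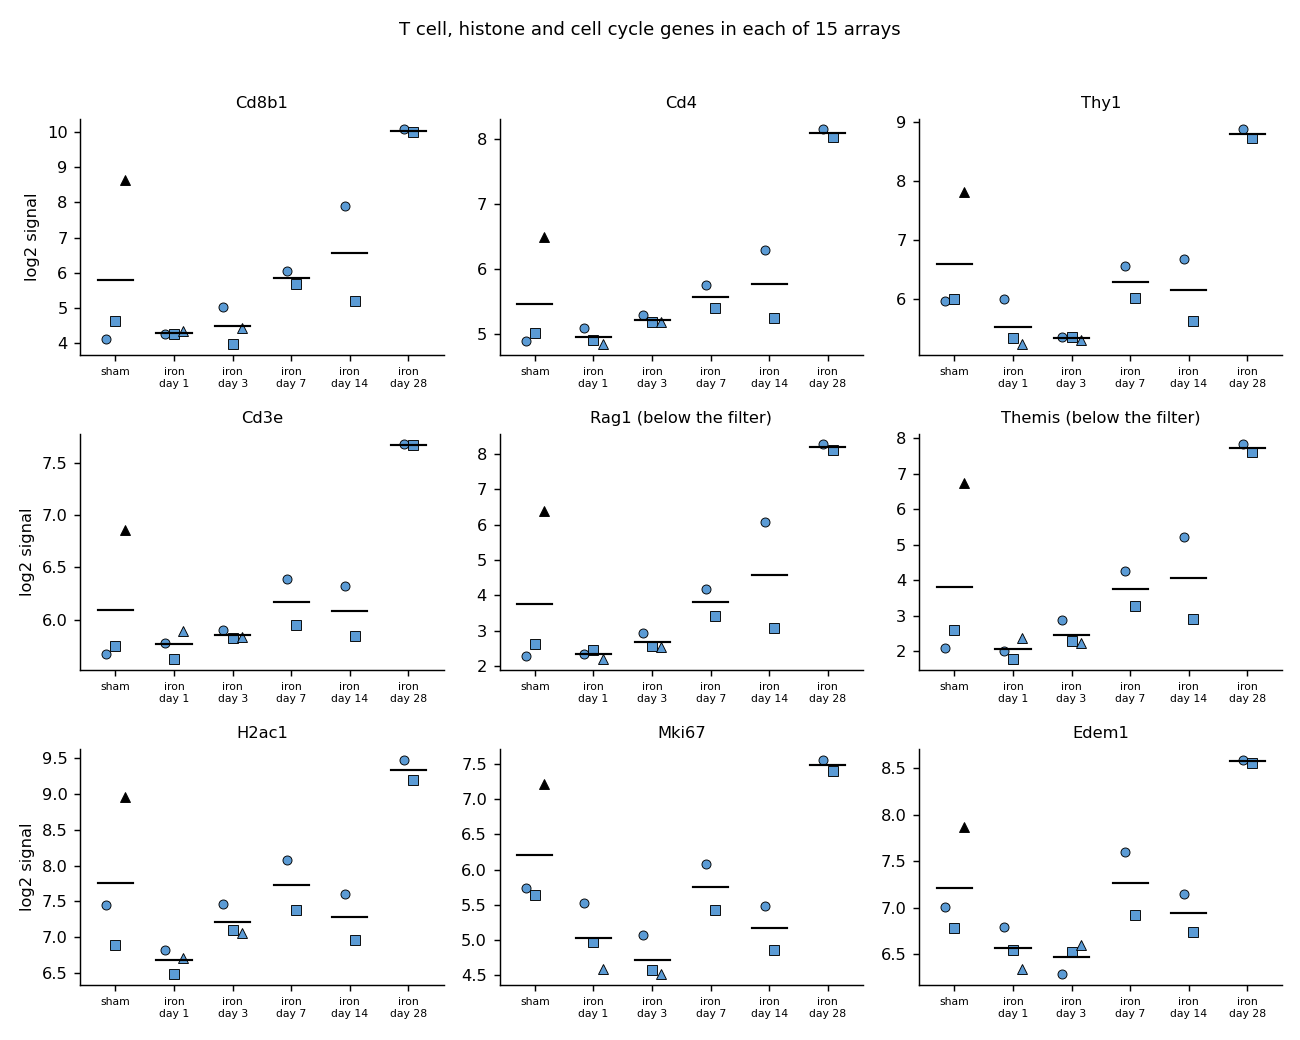
The log2 signal of 9 genes is plotted for each of the 15 arrays by group. Circles, squares and triangles are replicates 1, 2 and 3, lines are group means, and the black triangle is the sham array of day 3. Both day 28 arrays stand above all others in every panel, and the sham array of day 3 is next in each.

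Replication-dependent histone genes were the next group. Of 27 on the array, 17 passed the filter. Of these 17, 11 were higher (64.7%, beside 3.48% of all genes tested) and none lower, with a median difference of 1.09. H2ac15, a core histone of the H2A family, had 10.51 and 10.33 on day 28, against 8.95 and 8.08 on day 7 and 8.46 and 7.36 on day 14. Its difference was 2.21 (SE 0.48, adjusted p = 0.0312), and the day 28 arrays lay clear of the others. H2ac1, another H2A gene, had 9.48 and 9.20 on day 28, against 8.07 and 7.37 on day 7 and 7.60 and 6.95 on day 14. The linker histone gene H1f5 had 8.93 and 8.77 on day 28, against 7.45 and 7.09 on day 7 and 7.17 and 6.61 on day 14, a difference of 1.77 (SE 0.27, adjusted p = 0.0146). H1f1, also a linker histone, stood 1.75 higher, the H2B genes H2bc8, H2bc9 and H2bc14 1.72, 1.28 and 1.40, and the H4 genes H4c4 and H4c14 1.01 and 0.94. H2bc4 and H2bc21 did not follow, at -0.18 and 0.028, neither called. The gene copies of a histone family are nearly identical in their coding sequence, so a probe set may carry signal from several of them. In 16 of the 17 the sham array of day 3 was above both sham arrays of day 1, as in 30.6% of all genes tested. The median of the 17 was 0.077 with the untested T cell markers as a covariate.

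The promoters of 2 of these genes, H2ac1 and H1f5, are shown because both hold the CCAAT and TATAAA letters that mark many histone promoters. The windows reach from 250 bases before the annotated start to 50 after it (RefSeq, GRCm38.p6) and are written in the direction of transcription, with CCAAT and with TATAAA in capitals, each also where it lies on the other strand and is therefore printed as its reverse complement. H2ac1 lies at chr13:23934187-23934486 and H1f5 at chr13:21780576-21780875, on the plus and the minus strand.
H2ac1: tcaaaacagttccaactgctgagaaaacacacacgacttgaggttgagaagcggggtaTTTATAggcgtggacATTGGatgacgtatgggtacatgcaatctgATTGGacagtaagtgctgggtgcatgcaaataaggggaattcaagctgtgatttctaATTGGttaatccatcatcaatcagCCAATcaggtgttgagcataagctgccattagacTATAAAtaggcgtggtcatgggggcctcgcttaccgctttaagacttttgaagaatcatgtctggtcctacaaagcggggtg
H1f5: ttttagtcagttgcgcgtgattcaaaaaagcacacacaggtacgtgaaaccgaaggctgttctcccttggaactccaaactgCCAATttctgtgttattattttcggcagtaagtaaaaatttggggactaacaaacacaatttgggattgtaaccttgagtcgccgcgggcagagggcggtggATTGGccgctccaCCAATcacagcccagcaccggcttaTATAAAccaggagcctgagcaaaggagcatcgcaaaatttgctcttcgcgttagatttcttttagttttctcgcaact
In H2ac1 the forward TATAAA began at -32 relative to the start and in H1f5 at -28. Of the 11 histone genes called higher, 10 had a window in the table, 9 of these held CCAAT, 7 held TATAAA and 6 held both. Of the 6 not called, 4 had a window, 2 with CCAAT and 1 with TATAAA. On either strand CCAAT was in 37.4% of all 32851 windows and TATAAA in 13.6%. Such a match is a description of the letters and not a measured site.

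Some genes of the cell cycle and of DNA replication were higher as well. Of 18 tested, of 29 on the array, 4 were called higher (22.2%, beside 3.48% of all genes tested) and none lower, and the median was 0.38. Mki67 and Mcm6, 2 of the 4, passed the filter only through the day 28 arrays, so this count is a description too. Without the filter 9 of the 29 were called higher, and quantile normalization left 2 of the 18. Mki67, a marker of dividing cells, had 7.56 and 7.39 on day 28, against 6.08 and 5.43 on day 7 and 5.48 and 4.86 on day 14, a difference of 2.02 (SE 0.39, adjusted p = 0.023). Mcm6, part of the replicative helicase, had 6.86 and 6.56 on day 28, against 6.07 and 5.47 on day 7 and 5.42 and 5.07 on day 14, without overlap. Rrm1, which makes deoxynucleotides, and Pcna, the sliding clamp of the polymerase, stood 0.55 and 0.49 higher. None of the 5 cyclins tested was called, with Ccnd1 at -0.027, Ccnd2 at -0.069 and Ccne1 at 0.015. Ccnb2 at 0.34 and Ccnd3 at 0.40 had both day 28 arrays above all 4 earlier ones, as had 20.7% of all genes tested. Among cohesin and condensin subunits, which hold and compact chromosomes, 8 of 14 tested were higher (57.1%, beside 3.48% of all genes tested). They were led by the condensin subunit Smc4 at 1.16 with 7.83 and 7.74 on day 28, against 6.89 and 6.52 on day 7 and 6.67 and 6.42 on day 14. Ncapd2, another condensin subunit, stood 0.63 higher, and the cohesin subunits Rad21, Smc3, Stag1 and Stag2 stood 0.42 to 0.57 higher.

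Among regulators of chromatin, 25 of 95 tested were higher (26.3%, beside 3.48% of all genes tested) and none lower. Their median was 0.28 (12 higher after quantile normalization and 14 after median centring). Ezh2, the methyltransferase of the Polycomb repressive complex, had 7.98 and 7.81 on day 28, against 6.76 and 6.69 on day 7 and 7.10 and 6.61 on day 14 and was the widest at 1.11 (SE 0.21, adjusted p = 0.0205). Dnmt1, which copies DNA methylation at replication, stood 0.71 higher. The histone methyltransferase Kmt2a, the remodelling subunit Arid1a and the insulator protein Ctcf stood 0.54, 0.44 and 0.55 higher. Among splicing factors, 21 of 78 were higher (26.9%, beside the same 3.48%) and none lower. Their median was 0.29 (10 higher after quantile normalization and 12 after median centring). Tra2a, which activates splicing at exonic enhancers, had 7.85 and 7.92 on day 28, against 6.94 and 6.34 on day 7 and 6.97 and 7.15 on day 14 and stood 1.04 higher. Snrnp70, a protein of the U1 particle, stood 0.74 higher, and Clk4, a kinase of splicing factors, 0.55. Rbm20, a splicing factor of striated muscle that acts on the titin transcript, stood 0.49 higher with 8.62 and 8.72 on day 28, against 7.84 and 8.07 on day 7 and 8.35 and 8.46 on day 14. The cohesin and condensin, chromatin and splicing families were gathered by gene symbol after the values were seen, so their counts describe these arrays and support nothing further. The sham array of day 3 was above both sham arrays of day 1 in 13 of the 14 cohesin and condensin genes, 58 of the 95 chromatin genes and 56 of the 78 splicing factors. This held for 30.6% of all genes tested.

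A gene of the endoplasmic reticulum was also higher. Edem1, which delivers misfolded glycoproteins for degradation, had 8.59 and 8.56 on day 28, against 7.60 and 6.92 on day 7 and 7.15 and 6.74 on day 14, a difference of 1.47 (SE 0.26, adjusted p = 0.0164). It was the only 1 of 26 tested genes of the unfolded protein response to pass, and the median of the list was 0.27. A single call in this list, as in those of p53 targets, apoptosis and DNA repair below, is near the 3.48% called higher over all genes, so the counts say nothing of the lists. Other genes of the pathway showed smaller differences, with Eif2ak3, the sensor kinase PERK, at 0.57, the chaperone Hspa5 at 0.32, and the transducers Ddit3 and Atf4 at -0.12 and -0.18, none called. Edem1 stood at 7.86 in the sham array of day 3, against 7.00 and 6.78 in those of day 1. Trp53inp1, a stress protein downstream of p53, was the only p53 target of 17 tested to pass, at 1.17 (SE 0.29, adjusted p = 0.0417), with 9.12 and 9.02 on day 28, against 8.01 and 7.79 on day 7 and 8.26 and 7.54 on day 14. With the T cell covariate it stood at -0.078. Casp2, an initiator caspase, was the only 1 of 19 genes of apoptosis to pass, at 0.73 (SE 0.097, adjusted p = 0.00969), with 6.98 and 6.88 on day 28, against 6.36 and 6.14 on day 7 and 6.08 and 6.20 on day 14. Xrcc6, the Ku70 protein of DNA end joining, was the only 1 of 19 DNA repair genes, at 0.45 (SE 0.12, adjusted p = 0.0499).

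Genes that cardiomyocytes use for excitation and calcium handling were also among those higher on day 28. Of 17 calcium handling genes tested, 3 were higher (17.6%, beside 3.48% of all genes tested) and none lower. Their median was 0.20 (2 higher after quantile normalization and 1 after median centring). Ryr2 is the calcium release channel of the sarcoplasmic reticulum. It had 11.47 and 11.52 on day 28, against 11.06 and 11.17 on day 7 and 11.21 and 11.39 on day 14. Its difference was small at 0.29 (SE 0.072, adjusted p = 0.0446), with 0.38 against day 7 and 0.19 against day 14. Cacna1c, the pore of the L-type calcium channel, had 10.16 and 10.28 on day 28, against 9.59 and 9.68 on day 7 and 9.66 and 10.08 on day 14, a difference of 0.46 (SE 0.11, adjusted p = 0.0417). Itpr2, the inositol trisphosphate receptor of cardiomyocytes, had 6.87 and 6.93 on day 28, against 6.41 and 6.02 on day 7 and 6.20 and 6.10 on day 14, a difference of 0.72 (SE 0.13, adjusted p = 0.0189). The pump Atp2a2, its inhibitor Pln and the calcium store Casq2 stood at 0.083, 0.019 and 0.028, none called. Kcnj2, the channel that holds the resting potential, was the only 1 of 20 ion channels to pass, again near the 3.48% of all genes, and was not called after median centring. It had 8.68 and 8.76 on day 28, against 7.70 and 8.01 on day 7 and 8.35 and 8.23 on day 14, a difference of 0.64 (SE 0.15, adjusted p = 0.0356). Slc27a1, a fatty acid transporter, and Lama2, the laminin chain of the muscle basement membrane, stood 0.53 and 0.49 higher. Sham cells read 11.39 to 11.48 for Ryr2, 9.95 to 10.17 for Cacna1c and 8.45 to 8.66 for Lama2, at or near day 28. In these genes days 7 and 14 lay below or at the lower end of sham, save replicate 2 of day 14 for Cacna1c. For Itpr2, Kcnj2 and Slc27a1 sham cells read 6.38 to 6.80, 7.87 to 8.15 and 8.85 to 9.09, below both day 28 arrays. For Ryr2, Cacna1c, Lama2 and Slc27a1 the T cell covariate left differences of 0.34, 0.48, 0.70 and 0.68, not smaller than without it. Itpr2 and Kcnj2 stood at 0.33 and 0.45, smaller than without it. None of these genes was called with the covariate. Igfbp3, a binding protein of insulin-like growth factors, had 6.87 and 6.82 on day 28, against 6.39 and 6.31 on day 7 and 6.01 and 6.32 on day 14, with 0.58 (SE 0.10, adjusted p = 0.0164) in the comparison and 0.78 with that covariate.

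The gene with the smallest p was not on any list and was picked after its values were seen. Fnip2, a partner of the tumour suppressor folliculin in nutrient sensing, had 7.71 and 7.87 on day 28, against 6.55 and 6.51 on day 7 and 7.09 and 6.86 on day 14. Its difference was 1.04 (SE 0.11, adjusted p = 0.00175), and its sham arrays read 6.45 to 6.54, below both day 28 arrays and without a higher value on day 3. Erbb4, the neuregulin receptor of the heart, had 7.31 and 7.38 on day 28, against 5.89 and 6.28 on day 7 and 6.40 and 7.03 on day 14, a difference of 0.95 (SE 0.17, adjusted p = 0.0164), and was likewise picked after its values were seen. It stood at 6.92 to 7.21 in sham cells, just below both day 28 arrays, and 3 of the 4 arrays of days 7 and 14 lay below that range.

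Among clock genes, a pair of repressors changed in opposite directions. Of 9 repressors tested, Per3 was higher and Ciart lower (11.1% each, beside 3.48% and 0.602% of all genes tested). None of 7 activators and output genes was called. Per3, a period protein, had 5.93 and 6.04 on day 28, against 4.93 and 5.35 on day 7 and 5.31 and 5.23 on day 14, a difference of 0.78 (SE 0.15, adjusted p = 0.0231). It had been at 6.89 to 7.31 in sham cells, so that day 28 lay between sham and days 7 and 14. Ciart, which represses CLOCK and BMAL1, had 4.35 and 4.43 on day 28, against 5.12 and 5.89 on day 7 and 5.85 and 5.04 on day 14, a difference of -1.08 (SE 0.24, adjusted p = 0.0327). In sham cells it had been at 7.75 to 8.42, so that day 28 lay farther from sham than days 7 and 14 did. Ciart on day 28 lay below the array medians of 4.96 to 5.13. Below the filter limit of 5.51 lay Per3 on days 7 and 14 and Ciart on day 28. Ciart also lay below it on 1 array each of days 7 and 14. Such low signals limit what can be measured. Per1 had 6.16 and 6.12 on day 28, against 6.54 and 6.67 on day 7 and 6.75 and 6.54 on day 14, without overlap, and missed the threshold at -0.49 (SE 0.13, adjusted p = 0.0589). Nr1d2, the repressor REV-ERB beta, stood at 0.27 (SE 0.09, adjusted p = 0.0923), Dbp, a D-box activator, at 0.059 and Arntl, which encodes BMAL1, at 0.067. The hour of day at which cells were isolated is not given in the sources used here, and its part in these levels was not tested.

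The promoters of Per3 and Ciart are printed because these 2 repressors changed in opposite directions and hold different clock elements. E-boxes (CACGTG) are in capitals in Ciart and D-boxes (TTATGTAA, searched on both strands) in Per3, in the same kind of window as above. Ciart lies at chr3:95882179-95882478 and Per3 at chr4:151044616-151044915, both on the minus strand.
Ciart: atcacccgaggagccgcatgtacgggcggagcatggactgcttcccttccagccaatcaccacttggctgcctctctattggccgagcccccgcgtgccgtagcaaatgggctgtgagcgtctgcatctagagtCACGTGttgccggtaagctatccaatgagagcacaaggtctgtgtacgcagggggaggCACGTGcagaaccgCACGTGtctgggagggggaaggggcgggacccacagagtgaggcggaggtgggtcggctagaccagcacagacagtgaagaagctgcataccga
Per3: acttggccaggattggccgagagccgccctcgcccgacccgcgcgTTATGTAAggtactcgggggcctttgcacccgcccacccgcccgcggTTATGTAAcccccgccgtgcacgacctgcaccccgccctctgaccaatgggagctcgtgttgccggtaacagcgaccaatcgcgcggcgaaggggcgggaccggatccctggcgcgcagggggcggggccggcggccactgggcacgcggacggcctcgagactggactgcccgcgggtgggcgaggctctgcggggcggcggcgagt
Ciart held 3 E-boxes, with first bases at -116, -58 and -44 relative to the start, and no D-box. Per3 held 2 D-boxes, with first bases at -205 and -158, and no E-box. Of the 16 clock genes tested, 14 had a window, of which 4 held an E-box and 1 a D-box. An E-box was in 7.15% of all 32851 windows and a D-box in 0.938%. The letters describe these windows and say nothing about which factor was bound.

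**Figure D3:**
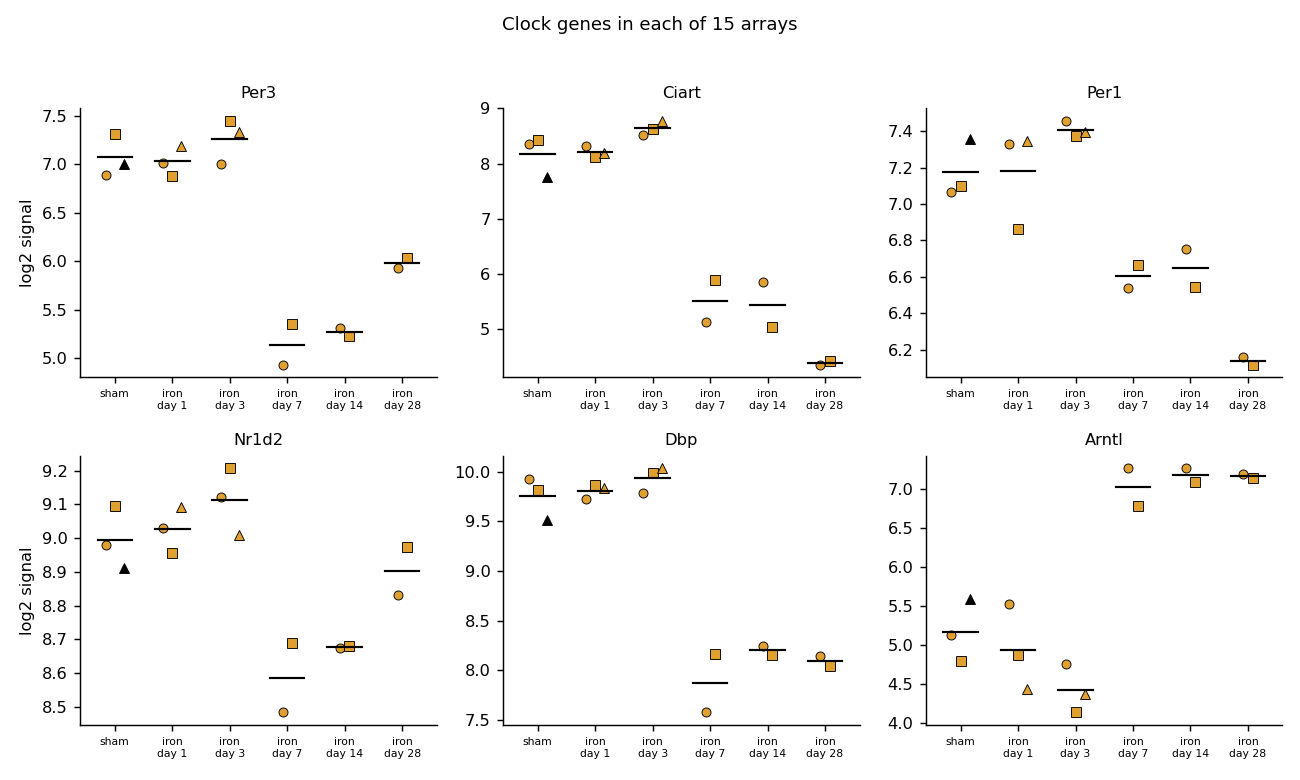
The log2 signal of 6 clock genes is plotted for each of the 15 arrays by group, with circles, squares and triangles for replicates 1, 2 and 3, lines for group means and a black triangle for the sham array of day 3. Per3 on day 28 lies between the sham and the day 7 and 14 levels, Ciart and Per1 lie lowest on day 28, and Dbp and Arntl overlap between days 7, 14 and 28.

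Apart from Ciart, the lower genes with the widest gap were Ms4a6d, Hmox1, Nr0b2 and Clec4a1. Ms4a6d, a membrane protein of monocytes and macrophages, had 5.63 and 5.37 on day 28, against 7.57 and 7.61 on day 7 and 6.66 and 5.79 on day 14, a difference of -1.41 (SE 0.22, adjusted p = 0.0146). Clec4a1, a lectin receptor of myeloid cells, had 5.39 and 5.20 on day 28, against 6.74 and 6.45 on day 7 and 5.72 and 5.42 on day 14, a difference of -0.79 (SE 0.20, adjusted p = 0.0455). Both were lower on day 28 than on all 4 earlier arrays, but the gap to day 14 was narrower than that to day 7, at -0.73 for Ms4a6d. Hmox1, which breaks down haem and releases its iron, had 5.58 and 5.46 on day 28, against 7.56 and 6.87 on day 7 and 5.98 and 5.44 on day 14, a difference of -0.95 (SE 0.21, adjusted p = 0.0344), and replicate 2 of day 14 lay at the day 28 level. Mt1, a metallothionein that binds zinc, had 10.36 and 10.44 on day 28, against 10.98 and 11.35 on day 7 and 10.87 and 10.49 on day 14, a difference of -0.52 (SE 0.13, adjusted p = 0.0425). These were the 2 of 28 antioxidant genes (7.14%) that passed, both downward, beside 0.602% called lower over all genes. Inhba, a subunit of activin, was the only 1 of 21 genes of TGF-beta and BMP signalling to pass. It had 6.13 and 6.17 on day 28, against 6.84 and 6.66 on day 7 and 6.78 and 6.49 on day 14. Its difference was -0.54 (SE 0.14, adjusted p = 0.0446). A single call says nothing of that list, whose median was 0.22 with 16 of the 21 above 0. Nr0b2, a corepressor of nuclear receptors also called SHP, had 6.11 and 5.86 on day 28, against 6.39 and 7.06 on day 7 and 6.91 and 6.90 on day 14, a difference of -0.83 (SE 0.18, adjusted p = 0.0327). Dusp7, a phosphatase that acts on ERK, had 8.38 and 8.83 on day 28, against 9.27 and 9.25 on day 7 and 9.26 and 9.36 on day 14, and its difference of -0.68 (SE 0.12, adjusted p = 0.0162) was nearly the same against each earlier day. Ninj1, a membrane protein of cell lysis, and Glp1r, the receptor of glucagon-like peptide 1, stood at -0.70 and -0.65. The other genes with the widest gap were Gm5617, Gm5577, Serf1, 1110008P14Rik, Scgb1c1, Bod1, Cnksr1 and Gm15998, at -0.77 to -0.63.

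Macrophage markers as a list did not pass in this comparison. None of 16 tested was called and 11 were lower at an unadjusted p under 0.05, with a median of -0.72 that came mostly from day 7. The median was -1.32 against day 7 and -0.10 against day 14. Cd68, a lysosomal protein of macrophages, had 6.93 and 6.78 on day 28, against 8.70 and 8.05 on day 7 and 7.28 and 6.86 on day 14, with a difference of -0.87 (SE 0.27, adjusted p = 0.0783). Mrc1, the mannose receptor of resident macrophages, had 6.37 and 6.16 on day 28, against 7.96 and 7.59 on day 7 and 7.11 and 6.10 on day 14. The mean level of all 21 macrophage markers was 6.72 and 6.59 on day 28, against 8.07 and 7.53 on day 7 and 6.95 and 6.50 on day 14, with 6.90 to 7.19 in sham cells. Neutrophil markers, none of which passed the filter, had mean levels of 4.01 and 3.97 on day 28, against 5.05 and 4.63 on day 7 and 4.36 and 4.46 on day 14. Day 28 lay lowest of these days, but 1 array of day 1 read 3.93. Of the 11 markers, 6 lay below all 4 arrays of days 7 and 14, beside 12.8% of all genes tested, whereas Ltf stood 0.53 higher.

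**Figure D4:**
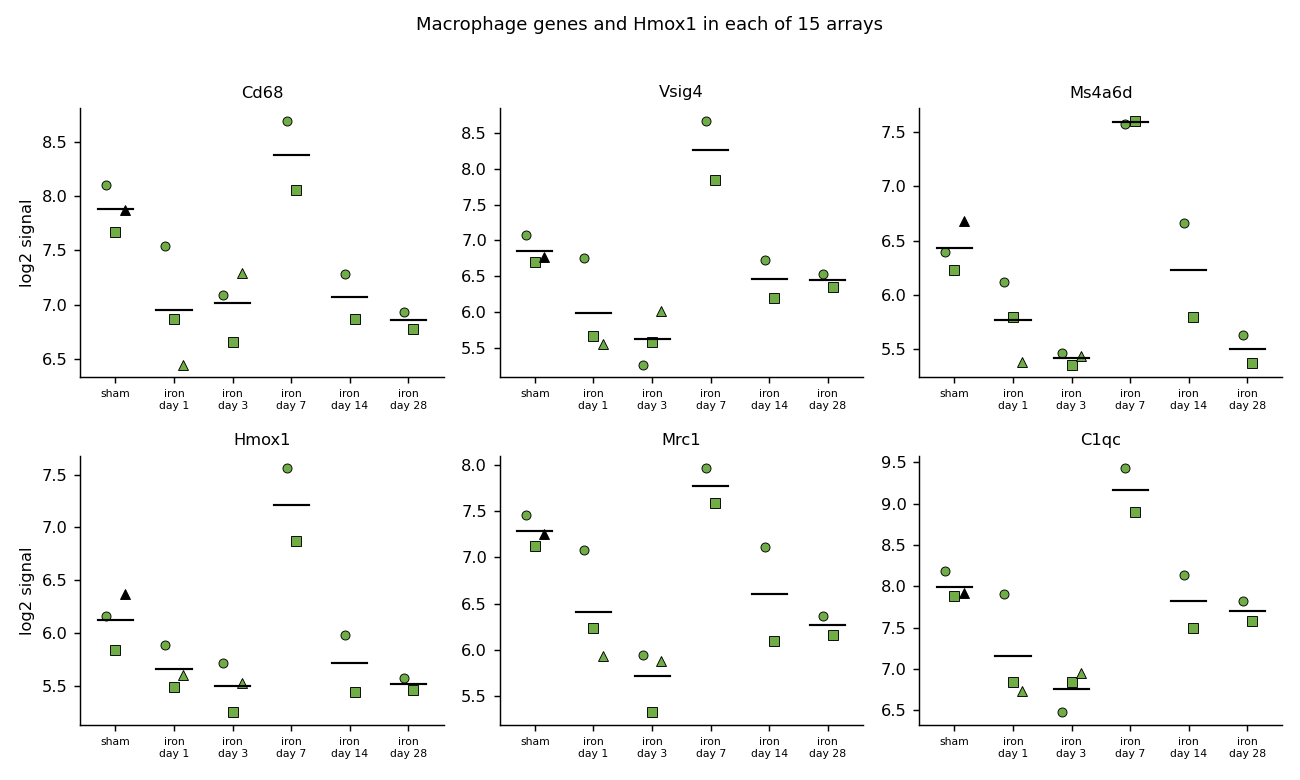
The log2 signal of 5 macrophage genes and Hmox1 is plotted for each of the 15 arrays by group, with circles, squares and triangles for replicates 1, 2 and 3, lines for group means and a black triangle for the sham array of day 3. The group mean is highest on day 7 in all 6, and the day 28 arrays lie within or below the range of day 14.

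Taken day by day, more genes were called against day 7 than against day 14. At an unadjusted limma p under 0.05 the counts were alike, with 2290 against day 7 and 2374 against day 14. Against day 7, 316 genes were higher (3.17%) and 61 lower (0.612%) on day 28. Of the 347 genes higher on day 28 in the joint comparison, 237 were also called against day 7 alone, and of the 60 lower genes 24 were. The joint and single comparisons share the day 28 arrays, so such counts do not add independent support. The 4 with the widest upward gap to day 7 were Cd4, Thy1, Satb1 and Aqp11, a water channel, at 2.51, 2.50, 2.32 and 1.80. Downward they were Ms4a6d, the chemokine Ccl6, the complement receptor Vsig4 and Hmox1. Ccl6 had 7.62 and 7.41 on day 28 and 9.51 and 9.27 on day 7, a difference of -1.88 (SE 0.47, adjusted p = 0.0451). Vsig4, a marker of resident phagocytes, had 6.54 and 6.35 on day 28 and 8.67 and 7.84 on day 7, a difference of -1.81 (SE 0.37, adjusted p = 0.0264). Of the 16 macrophage markers, 6 were lower against day 7.

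Against day 14, 31 genes were higher (0.311%) and 1 was lower (0.01%). The 4 with the widest upward gap were Thy1, Cd4, H1f5 and Satb1, at 2.64, 2.32, 1.96 and 1.87. Dusp7 was the gene that was lower, at -0.70 (SE 0.13, adjusted p = 0.0468). By p it was followed by Tmem150c, Sike1 and Gm5577, at -0.63, -0.73 and -0.72, which did not pass. Il33, an alarm cytokine of stromal cells, and Irf1, a transcription factor of the interferon response, stood 1.33 and 1.09 higher than on day 14, Il33 being picked after its values were seen. Irf1 had 6.75 and 6.72 on day 28, against 7.12 and 6.76 on day 7 and 5.46 and 5.82 on day 14, so that its day 28 arrays lay above day 14 and just below day 7. With 1 array left out at a time, between 0 and 488 genes were called against day 14, the highest count without replicate 2 of day 14.

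Between days 14 and 7 themselves no gene was called higher (0%) or lower (0%) in limma, with 1444 genes at an unadjusted p under 0.05. The smallest p upward on day 14 were those of Fam160a2, A630072M18Rik, Inha and 2610008E11Rik, and downward those of Irf1, Igsf6, Hmox1 and Ighm. None of these 8 passed. Irf1 was at 5.46 and 5.82 on day 14, against 7.12 and 6.76 on day 7. Without replicate 2 of day 7, 350 genes were called.

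Medians changed sign between the earlier days in several lists, among them those of stromal and antigen presentation genes. Inflammation genes, for example, had -0.29 relative to day 7 and 0.21 relative to day 14, and complement genes -0.33 and 0.12. The 7 class II antigen presentation genes had a median of -0.30 on day 28 relative to day 7 and 0.94 relative to day 14. Mesothelial and epicardial markers had -0.39 and 0.72, and fibroblast markers -0.12 and 0.48. In the class II, mesothelial and fibroblast lists 1 gene was called in the joint comparison, Thy1, which is listed for fibroblasts as well as for T cells. By contrast the T cell markers had 2.51 and 2.48. Oxidative phosphorylation genes had medians of -0.068 and -0.15, with none of 62 called, 12 lower at an unadjusted p under 0.05 and 53 below 0. Among these Uqcrh, a hinge protein of complex III, stood at -0.28 (SE 0.082, adjusted p = 0.0686). Sarcomere genes had a median of -0.026 in the joint comparison with none of 25 called, and ribosomal protein genes -0.034 with none of 50. Endothelial markers had a median of 0.43 and none of 18 called, with Kdr, the main receptor of vascular endothelial growth factor, at 0.96 (SE 0.41, adjusted p = 0.16). Of 9 adipocyte markers on the array, 4 were tested and none was called. The mean level of the 9 was 6.61 and 6.40 on day 28, against 6.34 and 6.00 on day 7 and 5.36 and 6.03 on day 14. Of the 9, 4 lay above and 1 below all earlier arrays of those days, beside 20.7% and 12.8% of all genes tested. Below the filter and not tested, Adipoq, Cidec and Retn stood 1.36, 1.37 and 1.66 higher, whereas Lep stood at 0.11 and Ucp1 at -0.062. The part of adipocytes in the other differences was not tested. Airway and lung markers had no gene called of 10 and a median of 0.096. Of 6 below the filter, Sftpc and Scgb3a2 stood 1.47 and 0.42 higher. The others were Cdh1 at 0.12, Sftpb at 0.026, Epcam at -0.17 and Sftpd at -0.26. Cyp2f2, an enzyme of airway cells, ranged widely. It had 8.63 and 9.07 on day 28, against 9.76 and 5.70 on day 7 and 6.57 and 8.32 on day 14. Of erythroid and B cell markers none of 4 and none of 3 was called. Small nucleolar RNAs had a median of 0.29 with none of 27 called, and Scarna17, a guide RNA of Cajal bodies, stood at 0.71 (SE 0.15, adjusted p = 0.0311).

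**Figure D5:**
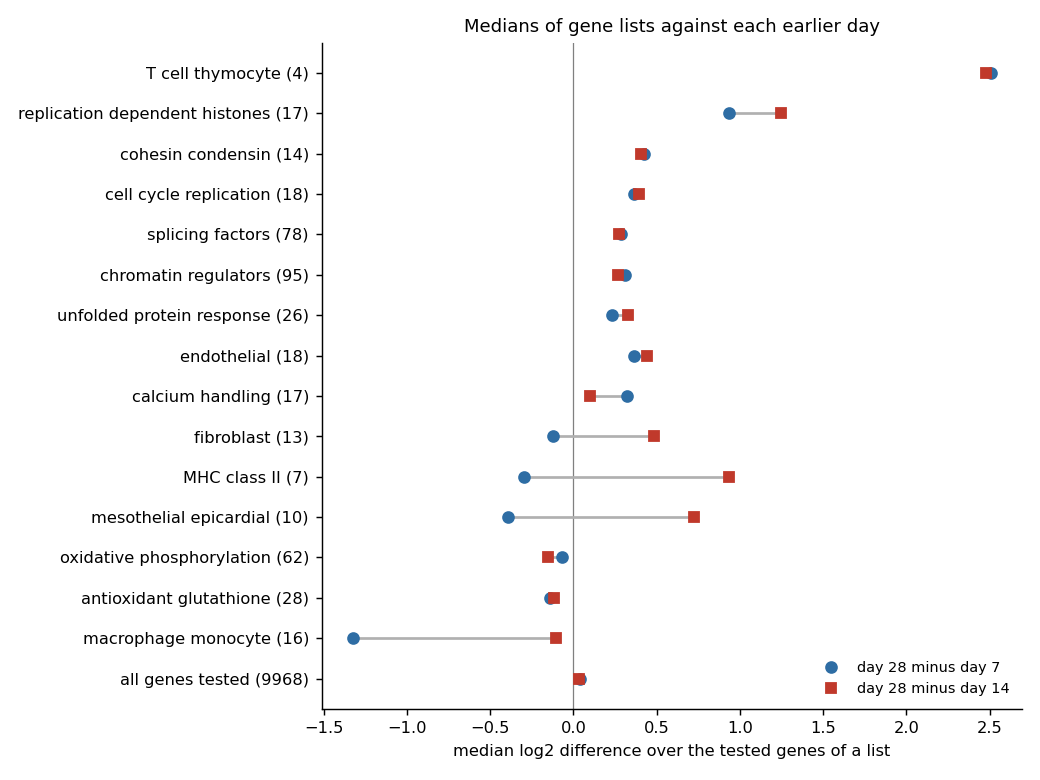
For 15 gene lists and for all genes tested, the median log2 difference over the tested genes is plotted against day 7 (blue circles) and against day 14 (red squares), with the number of genes in parentheses. T cell and histone lists lie to the right for both days, and macrophage markers lie at -1.32 against day 7 but near 0 against day 14.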

How the data were processed

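RNA from isolated cardiomyocytes was hybridised to 15 single-colour arrays. The authors deposited log2 values for 34760 probe sets, with MAS5 named in the submitters' processing notes; no source used here gives its version or scaling. Array medians were 4.96 to 5.13, so no further normalization was applied. Of the probe sets, 21640 had 1 gene symbol in the platform annotation, 1321 several and 11799 none. The probe set with the highest mean was kept for each of 19937 genes, and 9968 genes above the 50th percentile of mean signal (5.51) were tested. One linear model with 6 group means (pooled sham, iron days 1, 3, 7, 14 and 28) was fitted to all 15 arrays in limma 3.58.1 (R 4.3.3; trended empirical Bayes), with Benjamini-Hochberg adjustment over all 9968 genes and a threshold of 0.05. The fit was tested on simulated data.

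Named genes were the 15 largest non-overlapping called differences per direction, 4 per direction in the other comparisons, and up to 6 called members of each list (otherwise the 2 with the smallest p); list members that define a role are given for comparison, and others are said to be picked after their values were seen. The members and the 50 lists were chosen with earlier results of these data known. Alternatives covered normalization, filters, probe sets, array weights, the samples fitted, a replicate block and each array left out; averaging the day 28 arrays and the marker covariates were added after the data were seen. Promoter windows are from RefSeq (GRCm38.p6).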

Additional observations from a re-analysis of the deposited data

Results flagged for a closer look

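In 4 of the 127 named genes the day 28 arrays lay above 1 earlier day and below the other. All 4 had been named for their small p between days 14 and 7, and genes not named were not searched. The difference between the comparisons was not tested, and both share the day 28 arrays. Irf1, a factor of the interferon response, stood at 1.09 relative to day 14 and -0.21 relative to day 7. Ighm, the heavy chain of IgM, stood at 0.36 relative to day 14 and -0.29 relative to day 7. Igsf6, an immunoglobulin family gene of myeloid cells, stood at 0.14 relative to day 14 and -0.42 relative to day 7. Fam160a2 stood at -0.10 relative to day 14 and 0.39 relative to day 7.

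The 10 T cell markers left out by the filter on mean signal had a mean log2 level of 6.75 on day 28 and 4.46 in sham cells. Their signal is outside the tested genes, and its source was not tested.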

How the results depend on the processing

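The number of genes called depended strongly on the arrays and settings, and the cause was not tested. The counts with no change were 407 (day 28 against days 7 and 14), 377 (against day 7), 32 (against day 14) and 0 (day 14 against day 7). Quantile normalization gave 255 and, against day 14, 10. Centring arrays on their median gave 241 (189 higher, 52 lower) and, against day 14, 8. Against day 14, no filter gave 56, a stricter filter 7, all probe sets 21 and the iron arrays alone 119. Array weights gave 1839 in the joint comparison, 721 against day 7 and 446 against day 14. The arrays of days 7, 14 and 28 alone gave 35, 0 and 0. With the day 28 arrays averaged the counts were 0, 1 and 0. With the T cell covariate they were 6, 30 and 3, with 2 between days 14 and 7. The macrophage covariate gave 6 against day 7 and 339 against day 14, and both covariates gave 19, 27 and 6. Leaving out 1 array at a time gave 1 to 1225, 1 to 618 and 0 to 488, and 0 to 350 between days 14 and 7. The replicate block gave 356, 386, 105 and 3. The labels do not say whether arrays with the same replicate number belong together. Across genes, the differences between replicates 1 and 2 correlated at -0.299 (days 7 and 14), 0.062 (days 7 and 28) and 0.101 (days 14 and 28). Such correlations cannot show whether arrays shared a batch or an animal.

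Among the named genes that were called, a difference changed sign only with a covariate; among those not called, others also did, such as Ighm on leaving out 1 array (0.04 with all arrays, lowest -0.029) and Nppa (-0.98), Cyp2f2 (1.26) and Cd79b (0.80), which stood at 0.55, -2.47 and -0.59 with the T cell covariate. With the T cell covariate Cd8b1 stood at -0.86, Rasgrp1 at -0.086, Sla at -0.21 and Trp53inp1 at -0.078. With both covariates Cd8b1 stood at -0.90 and Clec4a1 at 0.26. None of these 6 values was called. Signals near the filter limit what can be measured, and genes below it were not tested.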
